A study of Mus musculus with 7 samples.

Results

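This section describes 10 genes of mesangial cells and pericytes in mouse glomeruli, chosen by symbol: Pdgfrb, Gata3, Ptn, Art3, Hopx and Fhl2 for mesangial cells, and Rgs5, Notch3, Cspg4 and Des for pericytes and related mural cells. All 10 were among the 12958 gene symbols of the deposited tables, and all 10 stayed in the tests. RNA came from glomeruli, the filtering tufts of the kidney. The animals were 7 male mice of strain BALB-C, 14 weeks old, with 1 library each. Every mouse, controls included, had received doxycycline through food and drinking water for 6 weeks, starting at 8 weeks of age. The 3 knockdown mice carried an siRNA transgene against Shroom3, which encodes a regulator of actin at cell junctions. The 4 controls were littermates lacking the siRNA transgene. The promoter that drives the siRNA, and so the cells in which it acts, is not given in the sources at hand. The comparison asks what differs in glomeruli of knockdown mice, and here how the supporting cells of the tuft appear in it.

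Mesangial cells hold the capillary loops of the glomerulus together. They arise from stromal progenitors that follow PDGF-B, released by the endothelium, through its receptor PDGFR-beta, which Pdgfrb encodes. Pericytes wrap small vessels elsewhere in the kidney and share with mesangial cells and vascular smooth muscle a set of mural genes, so most of the 10 genes are not private to one cell type.

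Values are log2 expression as deposited, without read counts, so depth and counting error are unknown. The libraries had medians from 9.15 to 9.16. Shroom3 was at 10.80, 10.91 and 10.89 in the knockdown libraries and at 10.94, 10.85, 11.36 and 11.06 in the controls, groups that overlapped (log2 difference, knockdown minus control, -0.19; limma, Benjamini-Hochberg adjusted p = 0.417). The transcript thus did not check the labels, and the groups are named as labelled. Shroom3 shares 3293 exonic bases with the noncoding gene 4932430I15Rik on the other strand. Whether counting used strand is not given, so reads of that stretch cannot be assigned to either gene. Titles started with G for 5 libraries (2 knockdown, 3 control), and the titles of knockdown replicate 3 and control replicate 4 started with CB6. Differences within each title style are given beside the pooled ones, the CB6 pair having 1 library per group and so no test.

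None of the 10 genes passed the test between knockdown and control. In limma across all genes with Benjamini-Hochberg adjustment, 0 of 10 had an adjusted p below 0.05, where 3.02% of all genes did. The count was also 0 of 10 with title style in the model (1.47% of all genes) and 0 of 10 in the G-titled libraries alone (0.309%). At an unadjusted p below 0.05 there were 2 of 10, Ptn and Art3, where 18.4% of all genes lay below it. For no gene of the 10 did the knockdown and control libraries separate without overlap, as they did for 18.4% of all genes. Of the 10 log2 differences 7 were negative, against 43.8% of all genes, and the median was -0.08, against 0.02 over all genes. The sign count rests on single libraries: 4 were negative without knockdown replicate 1, 5 without control replicate 1 or 3, and 9 without control replicate 2 or knockdown replicate 2. In the G-titled libraries 8 were negative, with a median of -0.22. The largest in size was that of Ptn at -0.42, and the highest was that of Notch3 at 0.21. In bulk tissue, fewer cells of a type and less RNA per cell cannot be told apart.

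**Figure D1:**
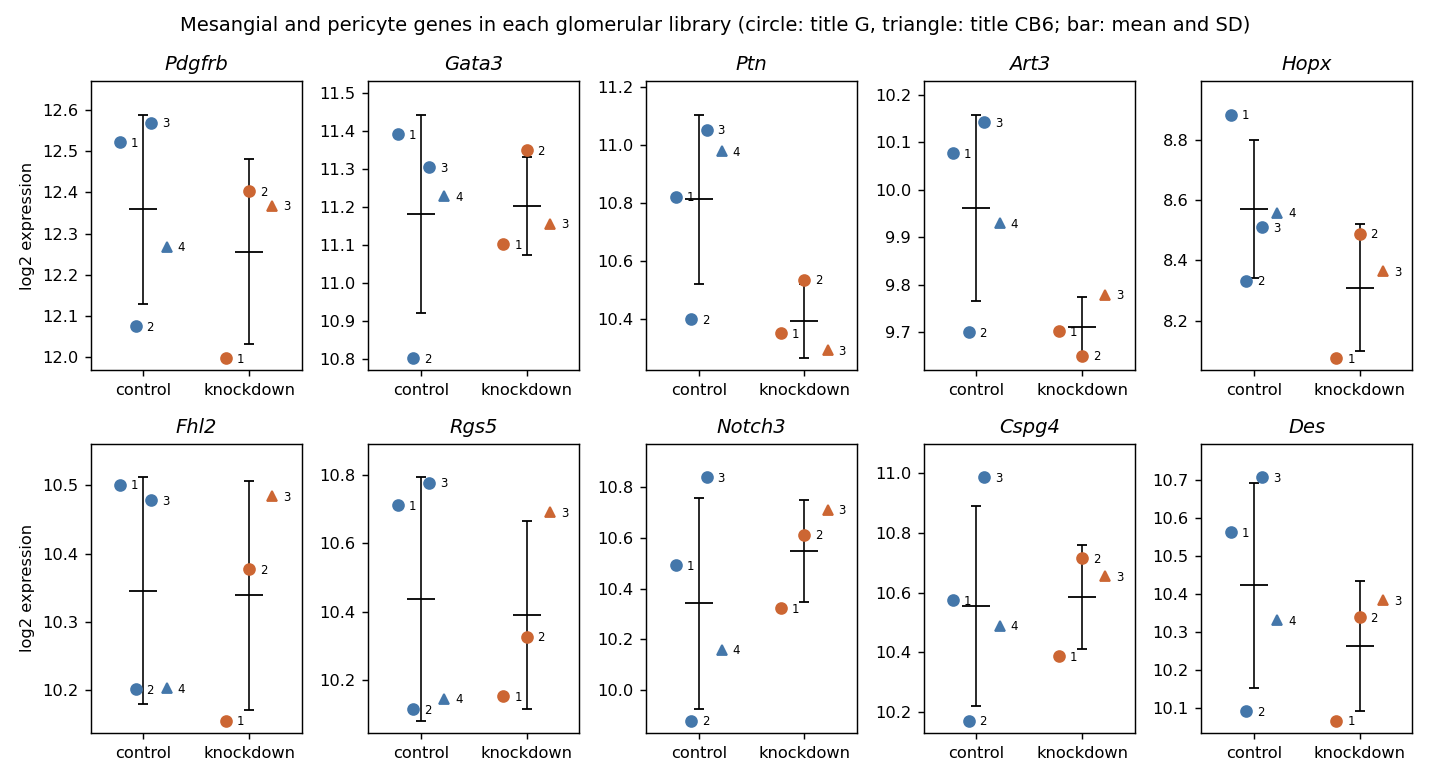
Log2 expression (vertical axis, scaled for each gene) of the 10 genes in each library, by group. Numbers are replicates, circles are G-titled libraries, triangles those titled CB6, and bars give the mean and SD. Knockdown and control libraries overlap in every panel, and control replicate 2 is the lowest control in each.

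Ptn encodes pleiotrophin, a secreted heparin-binding growth factor. Its knockdown libraries were at 10.35, 10.54 and 10.29 and its control libraries at 10.82, 10.40, 11.05 and 10.98. All knockdown libraries lay below 3 of the 4 controls, and control replicate 2 lay among them. Knockdown libraries had a mean of 10.39 ± 0.13 (SD, n = 3) and controls one of 10.81 ± 0.29 (SD, n = 4), which differ by -0.42 (SE 0.15, 95% CI -0.76 to -0.08; limma, Benjamini-Hochberg adjusted p = 0.177). Ptn differed by -0.32 among G-titled libraries and by -0.69 in the CB6 pair. Without control replicate 2 the log2 difference was -0.56 and Ptn passed (limma, Benjamini-Hochberg adjusted p = 0.018), the single case among the 16 other settings for Ptn, over which the adjusted p ran to 0.604. The gene lies at GRCm38 chromosome 6, 36714929 to 36810220, on the minus strand.

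Art3 encodes a cell-surface protein of the ADP-ribosyltransferase family. It was at 9.70, 9.65 and 9.78 in the knockdown libraries and at 10.08, 9.70, 10.14 and 9.93 in the controls. As with Ptn, control replicate 2 was the control that lay within the knockdown range. Art3 had a log2 difference of -0.25 (SE 0.11, 95% CI -0.49 to -0.01; limma, Benjamini-Hochberg adjusted p = 0.251), with -0.30 in the G-titled libraries and -0.15 in the CB6 pair. Art3 (chromosome 5, 92331827 to 92414628, plus strand) shares 133 exonic bases with Cxcl10 on the other strand. Whether counting used strand is not given in the sources used here, so reads of that stretch cannot be assigned to either gene.

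Hopx encodes a small homeodomain protein that does not bind DNA and that restrains the transcription factor SRF. Its knockdown libraries held 8.08, 8.49 and 8.36 and its controls 8.88, 8.33, 8.51 and 8.56. The lowest library was knockdown replicate 1 and the highest control replicate 1, with the others interleaved. For Hopx the log2 difference was -0.26 (SE 0.15, 95% CI -0.60 to 0.08; limma, Benjamini-Hochberg adjusted p = 0.395), at -0.29 in the G-titled libraries and -0.19 in the CB6 pair. Hopx (chromosome 5, 77086988 to 77115121, minus strand) shares 412 exonic bases with the antisense gene Hopxos.

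Pdgfrb, the PDGF-B receptor, was at 12.00, 12.40 and 12.37 in the knockdown libraries. The controls were at 12.52, 12.07, 12.57 and 12.27, so that each group spanned most of the range of the other. The means were 12.26 ± 0.23 (SD, n = 3) and 12.36 ± 0.23 (SD, n = 4), and the log2 difference of -0.10 (95% CI -0.42 to 0.22; limma, Benjamini-Hochberg adjusted p = 0.755) was smaller than either SD. Pdgfrb differed by -0.19 in the G-titled libraries and by 0.10 in the CB6 pair. Gata3, the zinc finger transcription factor that marks mesangial cells within the tuft, was at 11.10, 11.35 and 11.16 against 11.39, 10.80, 11.30 and 11.23. The knockdown values lay inside the control range, which control replicate 2 set at its lower end. Its log2 difference was 0.02 (95% CI -0.29 to 0.33; limma, Benjamini-Hochberg adjusted p = 0.958). Gata3 shares 155 exonic bases with the antisense gene Gm13256 and 77 with 9230102O04Rik on its own strand.

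Fhl2 encodes a LIM-domain protein that docks on integrins and on transcription factors. Its knockdown libraries held 10.16, 10.38 and 10.48, and its controls formed a high pair of 10.50 and 10.48 and a low pair of 10.20 and 10.20. The group means were 10.34 and 10.35, and the log2 difference was -0.01 (95% CI -0.25 to 0.24; limma, Benjamini-Hochberg adjusted p = 0.982). Within the G-titled libraries Fhl2 differed by -0.13 and in the CB6 pair by 0.28.

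Among the pericyte genes, Notch3 and Rgs5 had the largest SDs among controls. Notch3 encodes the Notch receptor of mural cells. It was at 10.32, 10.61 and 10.71 in the knockdown libraries and at 10.49, 9.88, 10.84 and 10.16 in the controls. The control range of 0.96 covered all 3 knockdown values and exceeded the control range of 96.8% of all genes. Notch3 had a log2 difference of 0.21 (SE 0.21, 95% CI -0.27 to 0.68; limma, Benjamini-Hochberg adjusted p = 0.655), with 0.06 in the G-titled libraries and 0.55 in the CB6 pair. Notch3 (chromosome 17, 32120820 to 32166852, minus strand) shares 488 exonic bases with the antisense gene Gm17276.

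Rgs5 encodes a GTPase activator that shortens G-protein signals and is a common pericyte marker. It was at 10.15, 10.33 and 10.69 in the knockdown libraries and at 10.71, 10.11, 10.78 and 10.15 in the controls. Both groups held low and high libraries, with knockdown replicate 3 and control replicates 1 and 3 high. Between the group means Rgs5 differed by -0.05 (95% CI -0.49 to 0.40; limma, Benjamini-Hochberg adjusted p = 0.93). The difference was -0.29 in the G-titled libraries and 0.54 in the CB6 pair, opposite in sign, and the difference between the styles was not tested.

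Cspg4, the gene of the proteoglycan NG2 on the pericyte surface, was at 10.39, 10.72 and 10.66 in the knockdown libraries against 10.57, 10.17, 10.99 and 10.49. The knockdown libraries sat within the control range. Cspg4 differed by 0.03 (95% CI -0.36 to 0.42; limma, Benjamini-Hochberg adjusted p = 0.95). Des encodes desmin, the intermediate filament protein of muscle and mural cells, and was at 10.07, 10.34 and 10.38 against 10.56, 10.09, 10.71 and 10.33. Knockdown replicate 1 and control replicate 2 were its low libraries. The log2 difference was -0.16 (95% CI -0.49 to 0.17; limma, Benjamini-Hochberg adjusted p = 0.617), with -0.25 in the G-titled libraries and 0.05 in the CB6 pair. Des shares 220 exonic bases with the antisense gene Gm15179. The intervals of 8 of the 10 genes included 0, and an interval of that width does not show that a gene was equal in both groups.

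**Figure D2:**
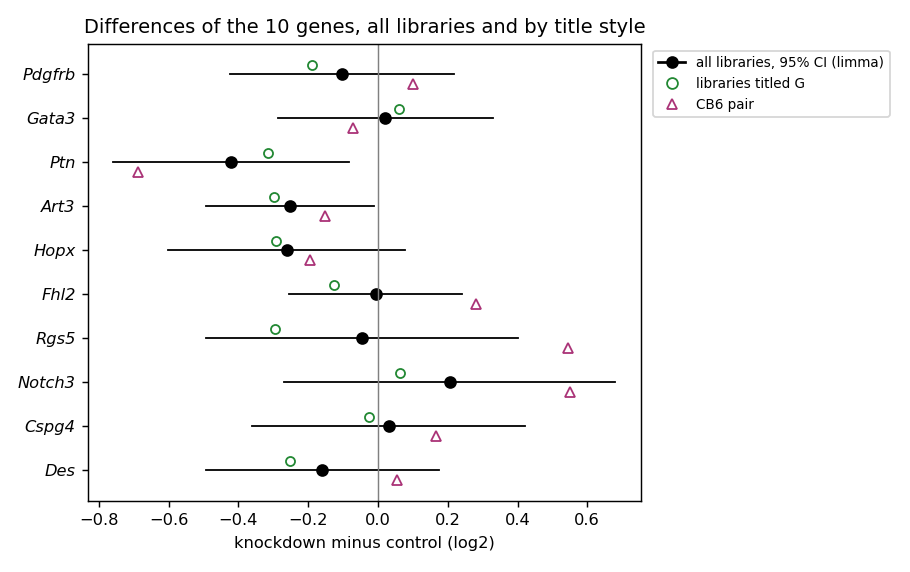
Knockdown minus control on the log2 scale (horizontal axis) for each gene (vertical axis). Filled points and lines give the limma estimate over all libraries with its 95% confidence interval, open circles the difference among G-titled libraries, and open triangles that of the CB6 pair. Only Ptn and Art3 have intervals below 0, and the G and CB6 symbols lie on opposite sides of 0 for 6 genes.

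The G and CB6 differences had the same sign for 4 of the 10 genes, Ptn, Art3, Hopx and Notch3, where 59% of all genes shared a sign. Pdgfrb, Fhl2, Rgs5, Cspg4 and Des were lower in knockdown among the G-titled libraries and higher in the CB6 pair, and Gata3 the reverse. The CB6 pair compares 2 animals and gives no spread of its own.

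The 10 genes varied together from library to library within each group. Control replicate 2 was the lowest of the 4 controls for 10 of 10 genes, which held for 26.1% of all genes, with deviations from the control mean between -0.46 for Notch3 and -0.14 for Fhl2. Control replicate 3 was the highest control for 7 of 10 (27.1% of all genes), and control replicate 1 lay above the control mean for 10 of 10. Knockdown replicate 1 was the lowest of its group for 8 of 10 (37.6% of all genes), with a median deviation from the control mean of -0.27. Knockdown replicates 2 and 3 each had 5 genes above and 5 below. Together, control replicate 2 and knockdown replicate 1 were the lowest of all 7 libraries for 8 genes, 4 each (15.8% and 15.5% of all genes). Control replicates 3 and 1 were the highest for 7 and 3 (18.2% and 16.3% of all genes). The median SD among controls was 0.27 for the 10 genes and 0.14 for all genes.

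**Figure D3:**
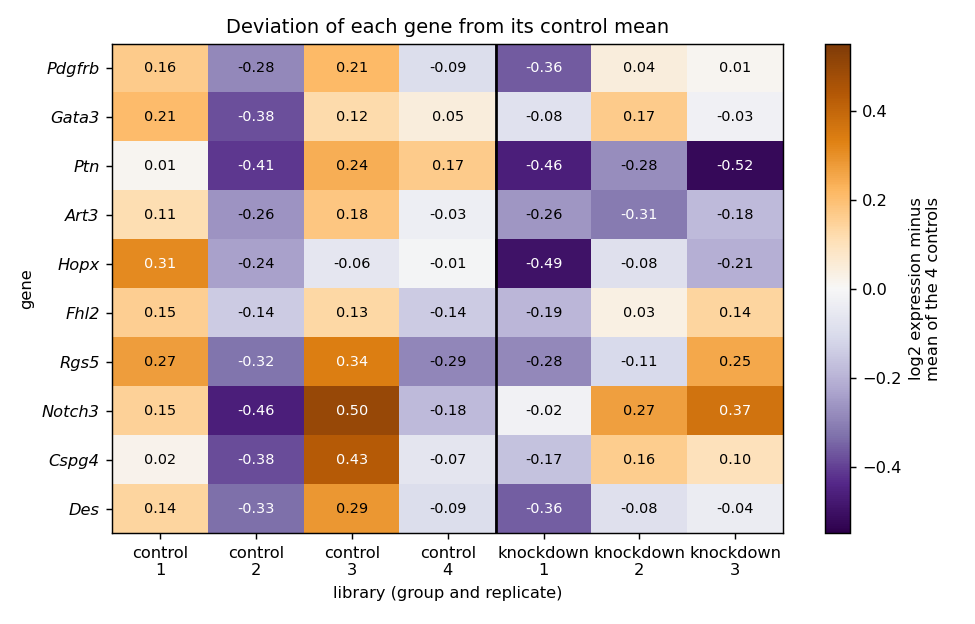
Log2 expression of each gene (rows) in each library (columns) minus the mean of the 4 controls for that gene, written in each cell and coloured from purple (lower) to orange (higher). Control replicate 2 and knockdown replicate 1 are negative for all 10 genes and control replicate 1 positive for all 10. Ptn, Art3, Hopx and Des are negative in all 3 knockdown libraries.

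In control replicate 2 the markers of other glomerular cells were low as well. The mean over 11 podocyte markers was 13.13 in control replicate 2 and between 13.50 and 13.70 in the other controls, and that over 10 glomerular endothelial markers was 12.72 against 12.94 to 13.16. For control replicate 3, high for most of the 10 genes, this did not hold throughout: its podocyte mean of 13.50 was the third of the 4 controls. Proximal tubule markers were not low in control replicate 2: the mean over 12 of them was 13.41 in control replicate 2, inside the control range of 13.10 to 13.45. In the knockdown libraries the podocyte mean ran from 13.14 to 13.33 and the endothelial mean from 12.56 to 12.83, both lowest in knockdown replicate 1. The proximal tubule mean ran from 12.50 to 12.83, below every control, and was highest in knockdown replicate 1. The low proximal tubule mean of the knockdown libraries rested mostly on 3 markers, Cyp2e1, Slc22a12 and Slc22a6. Without them, a choice made after seeing the data, 7 of the other 9 log2 differences were negative and 2 positive. Their mean was -0.15 and their median -0.21. The mean level over these 9 was 13.25 to 13.51 in knockdown and 13.34 to 13.64 in control libraries, ranges that overlapped. The mean over the 10 genes themselves was 10.23 to 10.49 in knockdown and 10.18 to 10.74 in control libraries. The part of the library makeup in the differences above was not tested.

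**Figure D4:**
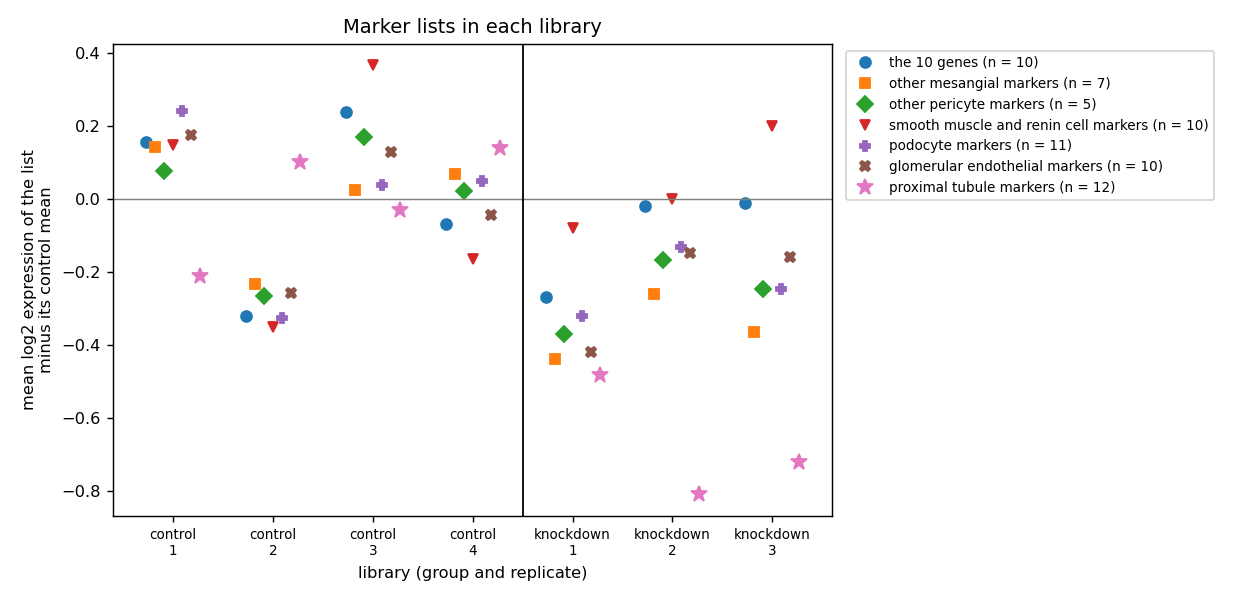
Mean log2 expression of the 10 genes and of 6 marker lists in each library (horizontal axis) minus the mean of that list over the controls (vertical axis), 1 symbol per list. In control replicate 2 the 10 genes and 5 of the lists lie between -0.35 and -0.23 while the proximal tubule list is above 0. In the knockdown libraries the proximal tubule list has the lowest mean of the lists plotted, which rests mostly on Cyp2e1, Slc22a12 and Slc22a6. Its median log2 difference of -0.28 is smaller in size than the -0.34 of the other mesangial markers. Without those 3 markers its median is -0.21.

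To see which of the 10 genes differed from the rest of the set, each gene was set against the mean of the other 9 in the same library, a comparison chosen after seeing the data. On this scale the knockdown libraries of Ptn were at 0.13, 0.06 and -0.22 and the controls at 0.19, 0.25, 0.35 and 0.61. Here every knockdown library lay below every control, and control replicate 2 no longer fell among the knockdowns. The difference between the group means was -0.36. Des separated as well, by -0.07, and the other 8 genes overlapped, from -0.18 for Hopx to 0.34 for Notch3. A separation of this kind was seen for 2 of the 10 genes, and for 6.08% of all genes set against the mean of the 10. Subtracting that mean takes a shared library pattern out of the 10 genes and puts it into genes that lack it, so the 2 figures are not comparable and nothing is read from them. Since each gene is compared with the others, such differences cannot all share a sign.

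The bases before the start sites of the 4 genes with the largest differences, Ptn, Hopx, Art3 and Notch3, are shown because the set moved together across libraries and because mural genes are often controlled through SRF, GATA factors and the Notch partner RBPJ. The windows are from RefSeq (GRCm38.p6), the outermost start of each gene, 250 bases ending just before the start, written 5′ to 3′ on the coding strand. Capitals mark matches to the CArG box of SRF, to AGATAA for GATA factors, to GTGGGAA for RBPJ or to TATAAA for the TATA box, each searched on both strands. In Art3 a forward and a reverse match of the TATA box overlap and are printed as 1 run of capitals.

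Ptn (chr6:36810180-36810429, minus strand): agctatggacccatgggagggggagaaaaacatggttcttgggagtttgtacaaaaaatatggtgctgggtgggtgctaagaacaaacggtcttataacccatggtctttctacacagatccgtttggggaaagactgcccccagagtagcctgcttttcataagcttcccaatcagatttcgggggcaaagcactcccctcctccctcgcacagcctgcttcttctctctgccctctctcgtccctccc
Hopx (chr5:77115124-77115373, minus strand): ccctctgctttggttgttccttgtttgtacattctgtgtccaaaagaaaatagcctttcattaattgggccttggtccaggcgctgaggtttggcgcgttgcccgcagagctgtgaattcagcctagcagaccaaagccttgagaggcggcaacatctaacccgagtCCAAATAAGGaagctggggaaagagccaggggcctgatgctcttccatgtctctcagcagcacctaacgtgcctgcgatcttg
Art3 (chr5:92331577-92331826, plus strand): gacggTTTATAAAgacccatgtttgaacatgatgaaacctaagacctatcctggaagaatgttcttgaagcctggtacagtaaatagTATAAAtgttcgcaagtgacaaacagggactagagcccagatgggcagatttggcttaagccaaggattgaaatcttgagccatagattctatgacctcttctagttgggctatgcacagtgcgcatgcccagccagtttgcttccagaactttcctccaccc
Notch3 (chr17:32166891-32167140, minus strand): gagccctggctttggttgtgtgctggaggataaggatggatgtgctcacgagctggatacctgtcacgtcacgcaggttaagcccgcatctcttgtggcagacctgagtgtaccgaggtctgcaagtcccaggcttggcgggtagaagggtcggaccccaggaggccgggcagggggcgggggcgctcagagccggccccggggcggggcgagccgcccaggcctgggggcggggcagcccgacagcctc

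Hopx held a CArG box, CCAAATAAGG, at positions -83 to -74 relative to its start, a motif found in 1.47% of 32851 promoter windows of the same length. Fhl2 held one before each of its 2 starts, CCAAAAAAGG and CCTTATATGG. No CArG box was found in the windows of the other 7 genes with an entry. TATAAA, in 12.4% of all windows, occurred in Art3 before 2 of its starts and in Fhl2. AGATAA, in 9.99% of all windows, occurred in Fhl2 and Rgs5, and GTGGGAA, in 5.42%, in none of the 13 windows of the 9 genes. The Notch3 window held 17 CpG sites and 68.8% G and C, and the Ptn window 5 and 52.0%, beside medians of 6 and 52.4% over all windows. Such matches describe the letters in these windows and not binding.

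Other genes were counted in the same fit, from lists of markers of the same and of other cell types and of partners of the 10 genes. The lists held 169 genes, of which 147 were measured, or 143 without 4 fill-in genes (Mef2c, Pdgfra, Nr2f1 and Meis2). In fill-in genes the values of the G-titled libraries differ only by offsets shared over 108 genes. Of the 147 genes, 9 fell and 1 rose, against 2.02% and 0.996% of all genes. The lists were chosen with earlier results of these data known, so no excess over these shares is read from the counts. The 9 include 4 proximal tubule markers and 1 podocyte marker, named below. Of 7 other mesangial markers 3 fell and 0 rose; whether this list differs from the 10 genes was not tested. Their median log2 difference was -0.34.

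Nt5e, the ecto-5′-nucleotidase that makes adenosine outside cells, fell. Its knockdown libraries were at 11.35, 11.23 and 11.37 and its controls at 12.06, 11.77, 11.89 and 11.96. The groups were far apart against their spread, and control replicate 2 was again the lowest control. Its log2 difference was -0.60 (SE 0.07; limma, Benjamini-Hochberg adjusted p = 0.00481). It passed in 15 of 16 other settings, title style in the model included (limma, Benjamini-Hochberg adjusted p = 0.0125), and missed in the G-titled libraries alone at -0.61 (limma, Benjamini-Hochberg adjusted p = 0.0999). Nt5e is also made in proximal tubule and cortical fibroblasts, and 4 of 12 proximal tubule markers fell in this comparison; their part in the fall of Nt5e was not tested.

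Sfrp2, a secreted modulator of Wnt signals, was at 11.12, 11.44 and 11.11 in the knockdown libraries and at 12.52, 11.68, 12.16 and 12.46 in the controls. The groups did not overlap, and control replicate 2 was the control nearest to the knockdown libraries. For Sfrp2 the log2 difference was -0.98 (limma, Benjamini-Hochberg adjusted p = 0.0343). Serpine2, a protease inhibitor, fell by 0.39 on the log2 scale (limma, Benjamini-Hochberg adjusted p = 0.0454). With title style as a covariate neither passed (limma, Benjamini-Hochberg adjusted p = 0.0644 and 0.0967), nor in the G-titled libraries, without intensity trend or without any 1 of the knockdown replicates or of control replicates 1, 3 and 4; with a replicate left out in these ways, Sfrp2 ran from -1.09 to -0.88 and Serpine2 from -0.44 to -0.32. The remaining mesangial markers did not pass: Igfbp5 differed by -0.34, Agtr1a, the angiotensin receptor, by -0.19, Mef2c, a fill-in gene, by 0.02, and Itga8, the integrin chain of mesangial cells, by -0.0033.

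Of 5 other pericyte markers measured, Anpep fell, from a control mean of 10.82 ± 0.21 (SD, n = 4) to 10.26 ± 0.06 (SD, n = 3), and 0 rose. The log2 difference was -0.56 (limma, Benjamini-Hochberg adjusted p = 0.0338), and Anpep kept its call in 8 of 16 other settings. It missed with title style in the model (limma, Benjamini-Hochberg adjusted p = 0.0714), in the G-titled libraries, without intensity trend and without any 1 of the knockdown replicates or of control replicates 3 and 4, with differences between -0.65 and -0.49 over all settings. Control replicate 2 was its highest control at 11.06, unlike for the 10 genes, and Anpep is also a brush border enzyme of the proximal tubule. The channel subunit Abcc9 differed by -0.07, Mcam by -0.23, Cd248 by -0.24 and Ndufa4l2 by -0.21, none passing.

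**Figure D5:**
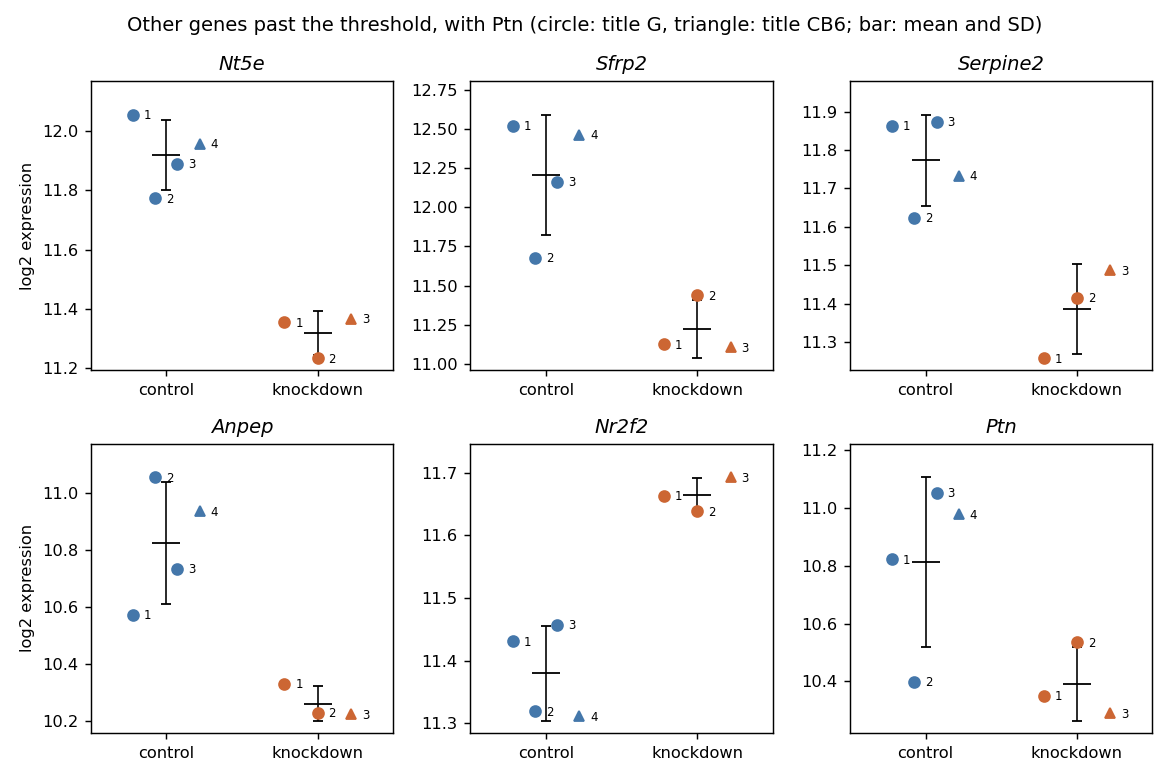
Log2 expression (vertical axis, scaled for each gene) by group and library of the mesangial, pericyte and stromal genes past the threshold, with Ptn for comparison. Symbols and bars are as in the plot of the 10 genes. Knockdown and control libraries do not overlap for Nt5e, Sfrp2, Serpine2, Anpep and Nr2f2, whereas control replicate 2 lies among the knockdown libraries for Ptn.

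Among 12 measured stromal and mesangial development factors (10 without Nr2f1 and Meis2), Nr2f2 rose and 0 fell. Nr2f2 encodes COUP-TFII, a nuclear receptor of venous and stromal cells. It was at 11.66, 11.64 and 11.69 in the knockdown libraries against 11.43, 11.32, 11.46 and 11.31, groups well apart for a small difference. The log2 difference was 0.28 (SE 0.06; limma, Benjamini-Hochberg adjusted p = 0.0345), kept in 8 of 16 other settings. Nr2f2 missed with title style in the model (limma, Benjamini-Hochberg adjusted p = 0.0961), in the G-titled libraries, without intensity trend and without any 1 of the knockdown replicates or of control replicates 2 and 4, with differences between 0.25 and 0.31 over all settings. Foxd1, the stromal progenitor factor, differed by -0.37 and Tcf21 by -0.30, neither passing, and Gata2 by -0.0002.

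The partners of the 10 genes showed no gene past the threshold in the PDGF (12 measured, 11 without Pdgfra), Notch (17), RGS and G-protein (10), pleiotrophin (7), SRF and LIM (10) and intermediate filament (7) lists. Pdgfb, the ligand of Pdgfrb made by endothelium, differed by -0.39 and Pdgfa by 0.37, and the phosphatase Ptpn11, which docks on the receptor, differed by -0.30 and missed the threshold (limma, Benjamini-Hochberg adjusted p = 0.0515). Ptpn11 passed in 5 of 16 other settings (quantile normalization, median scaling, the upper part of genes, without fill-in genes and without control replicate 2), the adjusted p running from 0.0393 to 0.291 over all 16. In the Notch list the ligand Jag1 differed by 0.24 and the targets Heyl and Hey2 by 0.43 and 0.48. Notch2 differed by 0.01, beside the 0.21 of Notch3. The targets Hes1, Nrarp and Hey1 differed by -0.17, -0.11 and -0.01, and the ligands Dll4 and Jag2 by -0.27 and -0.15. Of the 17 differences in this list 11 were positive and 6 negative, with a median of 0.01. Of the proteins related to Fhl2, Fhl1 differed by -0.33 (limma, Benjamini-Hochberg adjusted p = 0.0552) and passed in 1 of 16 other settings, the upper part of genes. Around desmin, Vim, which encodes vimentin, differed by -0.43, Nes, nestin, by -0.29 and Dst, a linker of filaments, by 0.19. Midkine, the relative of pleiotrophin encoded by Mdk, differed by 0.06, and Rgs2 and Rgs12 by -0.19 and -0.45. The lone relative of Art3 measured, Art1, differed by 0.27.

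Smooth muscle and renin cells share genes with pericytes, and 0 of 10 of their markers passed. Myh11, the smooth muscle myosin, differed by 0.30, Acta2 by 0.24 and Ren1, renin, by 0.43, while Mylk, the kinase of myosin light chain, differed by -0.48 and passed in 1 of 16 other settings, without control replicate 2 (limma, Benjamini-Hochberg adjusted p = 0.023). The mean over these markers was 10.25, 9.75, 10.46 and 9.93 in the controls. Control replicate 2 was lowest and control replicate 3 highest, as for 7 of the 10 genes. In the knockdown libraries it ran from 10.02 to 10.30. Of 4 fibroblast markers measured none passed, Col1a2 differing by -0.47 and Col3a1 by 0.30. Col1a2 passed in 3 of 16 other settings: the upper part of genes, without fill-in genes, and without control replicate 2 (limma, Benjamini-Hochberg adjusted p = 0.00468). Likewise, 0 of 6 parietal epithelial markers (Pax8 0.12, Scin -0.13) and 0 of 6 immune cell markers (Ptprc -0.26, Csf1r 0.0034) passed. The largest parietal difference was that of Cldn1 at -0.80 (limma, Benjamini-Hochberg adjusted p = 0.115), with -0.46 in the G-titled libraries and -1.65 in the CB6 pair. Of the 6 parietal differences 4 were positive. Among podocyte markers 1 of 11 fell, Magi2 (-0.70). Of the 11 podocyte differences 9 were negative (43.8% of all genes), with a median of -0.21. The groups did not overlap for 4 of the 11 (18.4% of all genes). Among glomerular endothelial markers 0 of 10 passed. All 10 differences were negative, with a median of -0.23 and a range from -0.41 to -0.09 (Ehd3 -0.23, Plat -0.09). In the proximal tubule list Cyp2e1 (-3.26), Slc22a12 (-2.26), Slc22a6 (-1.17) and Slc5a2 (-0.44) fell. These calls were kept in 15 of 16 other settings for Magi2, 16 for Cyp2e1 and Slc22a12, 14 for Slc22a6 and 7 for Slc5a2. Slc22a6 missed in the G-titled libraries and without knockdown replicate 2, and Slc5a2 with title style in the model, in the G-titled libraries, without intensity trend and without any 1 of the knockdown replicates or of control replicates 2, 3 and 4.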

How the data were processed

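Glomerular RNA of 7 mice was sequenced from poly-A selected libraries. Reads were aligned with BWA to mm10, per the submitters' processing notes; how reads were counted and normalized, and whether strand was used, is not given in the sources at hand. Each library has 1 table, deposited by the authors, of 12958 symbols with log-scale values taken as log2; the base is not stated, and another base would scale differences by a constant. Symbols were matched to GENCODE M21 (GRCm38), which held 12701 of them. Coordinates are 1-based.

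Knockdown and control were compared with limma 3.58.1 (R 4.3.3, intensity trend) across all genes, adjusted after Benjamini-Hochberg, at a threshold of 0.05. Requiring 3 libraries above the lowest value of the tables removed 0 genes. The setting without this filter therefore repeats the main fit, although it is counted among the other settings. The deviations of the CB6 libraries from their group means correlated at -0.96 across genes; whether values were adjusted for title style before deposit was not tested, in which case p-values of the group fit would be too small, and the fit with title style (4 residual degrees of freedom in place of 5) is given beside it. In 108 genes the G-titled libraries differed only by shared offsets (within 0.003), here called fill-in genes; none of the 10 genes is among them, but Mef2c, Pdgfra, Nr2f1 and Meis2 of the lists are.

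The genes described, the lists and the alternatives were chosen with earlier results of these data known. Named are the 10 genes, Shroom3 and, of each list, up to 4 genes past the threshold with the smallest p or otherwise the 2 with the highest mean; further list genes named with a difference were chosen after their values were seen, as was the comparison of each gene with the other 9. The fit was tested on simulated data. Alternatives were title style as a covariate, G-titled libraries alone, median scaling, quantile normalization, no intensity trend, no filter, the genes above the median by mean, robust variance moderation, other thresholds, and leaving out each library in turn or the fill-in genes.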

Additional observations from a re-analysis of the deposited data

Results flagged for a closer look

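Among the named genes, 1 had a control library that stood apart from the other controls. For Col1a2, a collagen chain of fibroblasts, control replicate 2 was at 10.69 and the other 3 controls between 11.08 and 11.13, a gap of 0.88 of the whole control range. Groups of 4 were tested for 44 genes. Chance alone gives a gap large enough to be flagged in about 1 of 20 independent groups, and these groups share the same 4 libraries. Without control replicate 2 Col1a2 passed the threshold (limma, Benjamini-Hochberg adjusted p = 0.00468). The library is the same control that was lowest for each of the 10 mesangial and pericyte genes.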

How the results depend on the processing

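No paired analysis was possible because the titles number the libraries without a number in common between the groups, and the replicate numbers used here only follow accession order. The number of the 10 genes past the threshold was 0 in every setting tried except without control replicate 2 (range with a library left out 0 to 1, Ptn being the gene). Their median log2 difference ran from -0.18 to 0.05 with a library left out, turning positive without knockdown replicate 1 (0.0489) and without control replicate 3 (0.0025), and was -0.22 in the G-titled libraries. List genes past the threshold were 10, and 5 with title style, 2 in the G-titled libraries, 6 without intensity trend, 4 to 18 with a library left out (lowest without knockdown replicate 2, highest without control replicate 2), and 19 and 5 at thresholds of 0.1 and 0.01. All genes past it were 391, and 191 with title style, 40 in the G-titled libraries, 134 to 480 with a library left out (lowest without knockdown replicate 2), and 846 and 124 at those thresholds. Of the 10 genes, 5 kept their sign in every setting. The other 5, none past the threshold, changed sign with a library left out: Pdgfrb ran from -0.197 to 0.027, Gata3 from -0.106 to 0.0905, Fhl2 from -0.0793 to 0.0851, Rgs5 from -0.197 to 0.0712 and Cspg4 from -0.097 to 0.175, with Cspg4 also at -0.0256 in the G-titled libraries. So did Plat (-0.219 to 0.0812), Csf1r (-0.0356 to 0.0307) and Notch2 (-0.0692 to 0.0843), with Csf1r at -0.0211 and Notch2 at -0.123 in the G-titled libraries and Csf1r at -0.0026 with median scaling. Hopx lay below the mean limit of the upper part of genes and got no value there. The causes were not tested. Depth is unknown and limits could not be set from it.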
